A study of Mus musculus with 16 samples.

Results

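Secretoglobins are small secreted proteins, and Scgb1a1, Scgb3a1 and Scgb3a2 are the members of the family best known from the secretory cells of the airways. All probe sets of the deposited table annotated to only 1 of these symbols were taken, in all 16 tumors, which gave 1 probe set for each of the 3 genes among 12393 genes and 22626 probe sets tested. The genes were chosen from the difference between metastases and matched primary lung tumors in these same arrays, so that difference is given below as a description, with no test. The tumors were 9 metastases from mice 1 to 4, the 4 primary lung adenocarcinomas of the same mice, and 3 further primary lung adenocarcinomas from mice 5, 6 and 7, for which no metastasis was profiled. All mice, including those that provided the primary tumors used as references, were p53R172HΔg/+ K-rasLA1/+, that is, heterozygous for a mutant p53 knock-in allele and for a latent oncogenic K-ras allele that is activated by a chance recombination in single cells of the animal, under no lung-specific promoter. Mouse 6 was female and the others were male, and the labels give no ages. The 4 thoracic metastases lay in the mediastinal lymph node (mice 3 and 4), the parietal pleura (mouse 4) and the heart (mouse 3), and the 5 distant metastases in the liver (mice 1 and 2) and in the body wall, labelled as subcutaneous or inguinal (2 in mouse 1 and 1 in mouse 3). Each tumor was 1 array, up to 3 metastases came from 1 mouse and were set against the same primary tumor, and nothing in the labels shows that the profiled primary tumor was the one that seeded them.

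Club cells are dome-shaped non-ciliated cells of the bronchioles that secrete proteins into the airway lining fluid, metabolize inhaled chemicals with cytochrome P450 enzymes, and act as progenitors for the bronchiolar epithelium. Scgb1a1, also called uteroglobin, is their main secretory product and the gene most often used to mark them. Scgb3a1 and Scgb3a2 belong to a related subfamily and are also made by airway secretory cells. Transcription of Scgb1a1 in the lung is known to depend on Nkx2-1, C/EBP and forkhead factors. In bulk tumors a lower level may come from fewer cells of a type or from less RNA per cell, and these cannot be told apart.

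A search of the promoters of Scgb1a1 and Scgb3a1 was planned, and of these only Scgb3a1 had an entry in the RefSeq promoter table. The promoter of Scgb3a2 was not searched. The 250 bases before the start of Scgb3a1 are shown because they were searched for short motifs of these factors and of Ets factors (GRCm38.p6, chr11:49663345-49663594, + strand), with the matches in capitals.
Scgb3a1: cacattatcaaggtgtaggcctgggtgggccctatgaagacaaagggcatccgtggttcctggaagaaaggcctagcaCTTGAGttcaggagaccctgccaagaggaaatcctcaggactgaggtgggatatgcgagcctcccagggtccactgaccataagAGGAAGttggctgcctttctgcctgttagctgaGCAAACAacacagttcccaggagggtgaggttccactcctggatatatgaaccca
On both strands 4 motifs were searched, none of which overlapped another here. The Nkx2-1 core CTCAAG matched once on the reverse strand, 172 to 167 bases before the start, and occurred in 13.3% of 32851 promoters of the same length. The forkhead motif TGTTTNC matched once on the reverse strand, 55 to 49 bases before the start, against 17.8% of promoters. The Ets motif AGGAAG matched once on the forward strand, 88 to 83 bases before the start, against 29.5% of promoters, and the C/EBP motif TTNCNNAA, present in 36.8%, had no match in this window. A match describes the letters only.

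The arrays were alike, with correlations of 0.900 to 0.969 over 120 pairs. The primary tumors carried the alveolar type 2 genes of a lung adenocarcinoma. A list of 12 such genes, surfactant proteins and others, summed to 4110 to 36911 intensity units per metastasis, against 22188 to 60972 units per primary tumor. A list of 7 liver genes summed to 6096 and 7832 units in both body wall tumors of mouse 1, in the range of the liver metastases (8588 units in mouse 1 and 5446 in mouse 2), whereas the other 5 metastases had 346 to 1948 units. Alb, Apoa1 and Ttr made up most of the sums of these body wall tumors, with Ttr at 3608 and 2916. Not all liver genes were high in them. Ahsg was at 51.0 and 47.4, against a mean of 79.7 in the matched primary tumors and up to 678 among the metastases. Fgb was at 5.34 and 21.2, against up to 216 among the metastases. The sums stood above the 520 units of the body wall tumor of mouse 3, and whether the labels or the tissue in the samples account for them was not tested. Fitted differences of the secretoglobins that include these body wall tumors were therefore repeated without them, an alternative chosen after the data had been seen. So was the count of club cell genes called lower. The other lists, the list sums, the correlations and the permutation tests between metastases include these tumors throughout.

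Scgb1a1 was lower in every metastasis than in the primary tumor of the same mouse. In mouse 1 its intensity was 32.9 and 96.4 in the body wall tumors and 59.1 in the liver metastasis, against 2925 in the primary tumor. In mouse 2 it was 16.9 in the liver metastasis and 1702 in the primary tumor. In mouse 3 it was 15.9 in the body wall tumor, 11.5 in the heart and 20.7 in the lymph node, against 972 in the primary tumor. In mouse 4 the lymph node metastasis had 177 and the pleural metastasis 117, against 3120 in the primary tumor. Metastases thus kept between 0.993% (liver, mouse 2) and 5.68% (lymph node, mouse 4) of the intensity of their own primary tumor. The highest metastasis, at 177, was also below the lowest of all 7 primary tumors, at 261 in mouse 6, so the groups did not overlap. The fitted log2 difference with the mouse as a block was −5.63 (SE 0.36), the most negative of all probe sets tested, and corresponds to a 49.5-fold lower intensity. Without both body wall tumors of mouse 1 it was −5.62. The 4 metastases of mice 2 and 3 were below 24.3, the 25th percentile of all values, and with all values raised to that percentile the difference was −5.35.

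The residual Scgb1a1 level in the metastases was ordered by mouse. Both metastases of mouse 4 (117 and 177) were above all 3 of mouse 1 (32.9 to 96.4), which were above the single one of mouse 2 (16.9), and that value lay within the range of mouse 3 (11.5 to 20.7). The primary tumors had the same order, with 3120 in mouse 4, 2925 in mouse 1, 1702 in mouse 2 and 972 in mouse 3. The mean log2 ratio to the own primary tumor was −4.43 in mouse 4, −5.68 in mouse 1, −6.65 in mouse 2 and −5.96 in mouse 3. Over the 9 metastases the SD of the log2 intensity was 1.44, larger than for 97.8% of probe sets. The summed alveolar type 2 list followed part of this order, since it was highest in the metastases of mouse 4 (34833 and 36911 units) and lowest in those of mouse 3 (4110 to 5941), but the liver metastasis of mouse 2 had 28418 units, above the 11947 to 16690 of mouse 1. The part of these cells in the Scgb1a1 level was not tested.

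**Figure D1:**
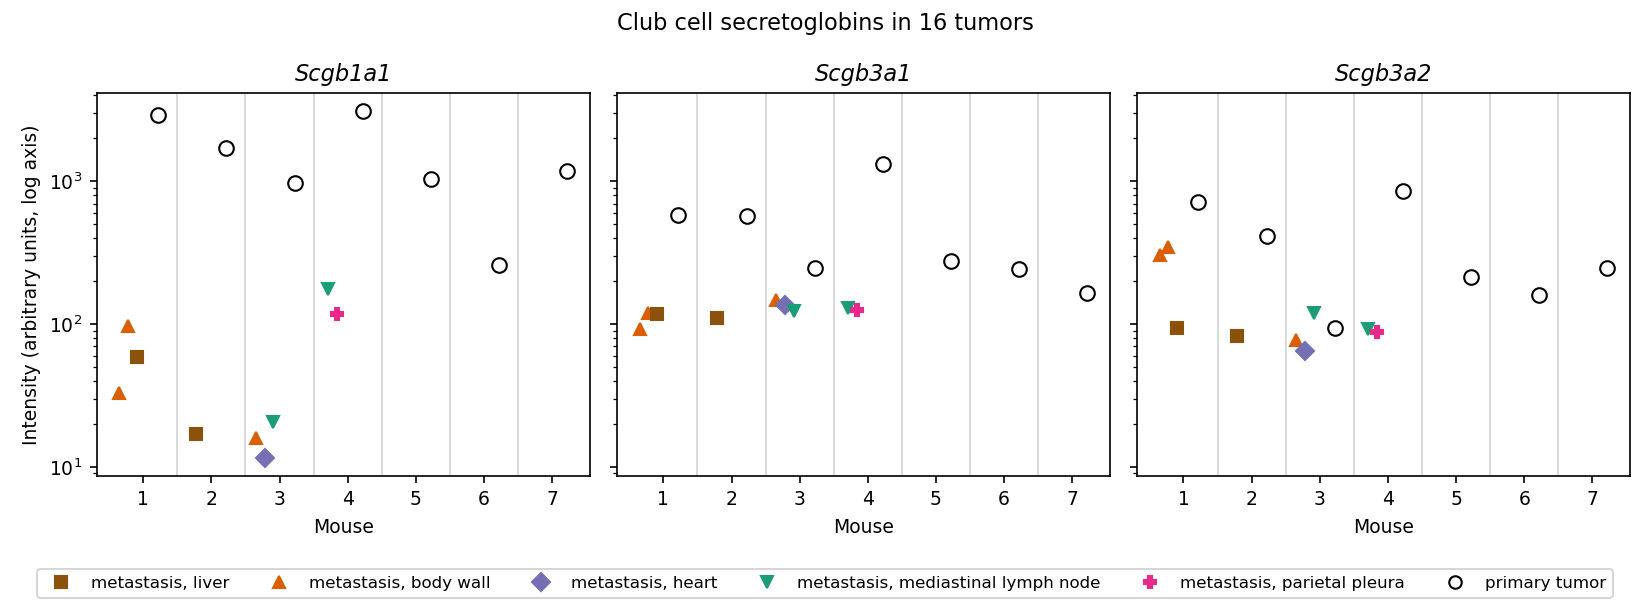
Intensity of each gene (arbitrary units, log axis) in each tumor, by mouse, with metastases as filled symbols left of the open circle of the primary tumor. For Scgb1a1 all 9 metastases, at 11.5 to 177, lie below all 7 primary tumors, at 261 to 3120; for Scgb3a1 the metastases form a narrow band; for Scgb3a2 both body wall tumors of mouse 1 stand above the other metastases.

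Scgb3a1 was also lower in 9 of 9 metastases than in the matched primary tumor, but the metastases reached nearly the same level whatever the level of the primary tumor. In mouse 1 it was at 92.2 and 120.7 in the body wall tumors and 118 in the liver, against 578 in the primary tumor. In mouse 2 the liver metastasis had 110 and the primary tumor 576. In mouse 3 the body wall, heart and lymph node tumors had 148, 137 and 124, against 247 in the primary tumor. In mouse 4 the lymph node and pleural tumors had 129.6 and 125, against 1325 in the primary tumor. The 9 metastases averaged 123 ± 15.9 (SD), with the highest 1.61 times the lowest, whereas the 7 primary tumors averaged 487 ± 405 and differed up to 8.02-fold. On the log2 scale the SD was 0.20 among metastases, larger than for 10.5% of probe sets, and 1.04 among primary tumors, larger than for 91.9%. The highest metastasis (148, mouse 3) lay just below the lowest primary tumor (165, mouse 7), so these groups did not overlap either.

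Since the metastases had a common level, the size of the Scgb3a1 difference followed the primary tumor. No other probe set read this gene, and how much of the common level was Scgb3a1 RNA was not tested. The mean log2 ratio was −3.38 in mouse 4, −2.40 in mouse 1, −2.38 in mouse 2 and −0.86 in mouse 3. The fitted log2 difference was −2.21 (SE 0.31), 4.62-fold lower, which placed it at rank 56 among the probe sets by size of the negative difference, and it was −2.17 without both body wall tumors of mouse 1. It was −2.74 without mouse 3 and −1.82 without mouse 4.

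Scgb3a2 was lower than in the matched primary tumor in 8 of 9 metastases, and here the sites within 1 mouse differed. In mouse 1 the body wall tumors had 306 and 349 and the liver metastasis 93.9, against 720 in the primary tumor. In mouse 2 the liver metastasis had 83.3 and the primary tumor 415. In mouse 3 the body wall and heart tumors had 77.7 and 64.5 and the lymph node tumor 119, against 94.7 in the primary tumor. The lymph node metastasis of mouse 3 was the 1 metastasis above its primary tumor, with a log2 ratio of 0.33. In mouse 4 the lymph node and pleural tumors had 93.1 and 88.1, against 861 in the primary tumor. The groups overlapped, because the primary tumor of mouse 3, at 94.7, was below 3 metastases, both body wall tumors of mouse 1 (306 and 349) and the lymph node tumor of mouse 3 (119). The fitted log2 difference was −1.78 (SE 0.48), 3.44-fold lower and at rank 100 by size, and the median over the 9 log2 ratios was smaller, at −1.23. Without both body wall tumors of mouse 1 the fitted difference was −2.04.

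All 9 metastases were below all 7 primary tumors for 2 of the 3 genes, and for 0.318% of all probe sets. Of the 22626 probe sets, 0.340% were called lower and 0.0133% higher in metastases at an adjusted p under 0.05 in the paired limma fit. Because the genes were taken from this contrast, nothing is read from these shares. Within the metastases, the log2 ratio to the primary tumor was lower for Scgb1a1 than for Scgb3a1 in 9 of 9 tumors (median difference −3.83, from −5.56 to −0.78), and lower for Scgb1a1 than for Scgb3a2 in 9 of 9 (median −4.34, from −5.89 to −0.93). The ratios of Scgb3a1 and Scgb3a2 lay closer together, with a median difference of −0.29 and a lower value for Scgb3a1 in 8 of 9 metastases, the exception being the liver metastasis of mouse 1. The gap between Scgb1a1 and the others was smallest in mouse 4, where the ratios of Scgb1a1 were −4.14 (lymph node) and −4.73 (pleura) and those of Scgb3a1 −3.35 and −3.41.

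**Figure D2:**
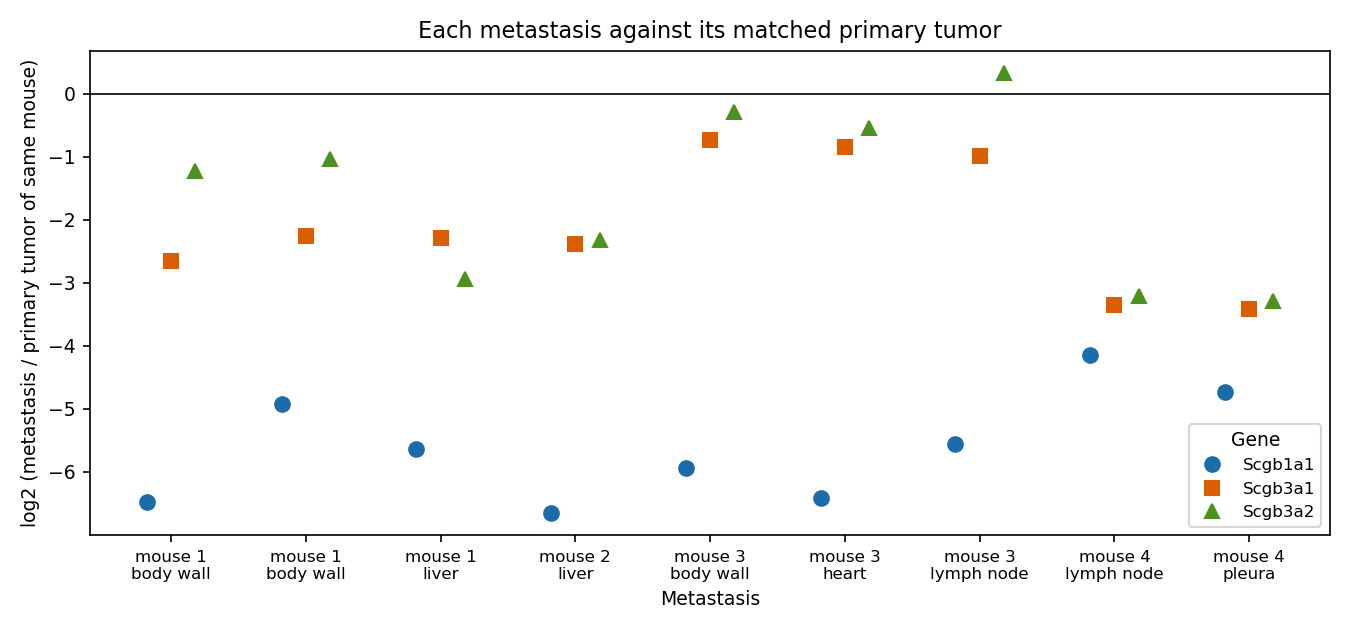
Log2 ratio of each metastasis to the primary tumor of the same mouse, for each gene, with the horizontal line at no difference. Scgb1a1 has the lowest ratio in all 9 metastases, and Scgb3a2 in the lymph node tumor of mouse 3 is the only point above 0, at 0.33.

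Whether the levels depended on the metastatic site was asked next, among the metastases alone, a comparison that the choice of genes did not use directly. Thoracic metastases had 11.5, 20.7, 117 and 177 units of Scgb1a1 and distant ones 15.9, 16.9, 32.9, 59.1 and 96.4, so the thoracic tumors held both the lowest and the highest value. The log2 difference, thoracic minus distant with the mouse as a random block, was 0.52 (SE 0.87, 95% interval −1.46 to 2.50, limma adjusted p = 0.932). For Scgb3a1 it was 0.10 (SE 0.16, −0.25 to 0.46, limma adjusted p = 0.926), from 124 to 137 units in thoracic and 92.2 to 148 units in distant tumors. For Scgb3a2 it was −0.55 (SE 0.54, −1.77 to 0.68, limma adjusted p = 0.886). None of the 3 genes was called, and 0% of the 22626 probe sets were, with 1225 at an unadjusted p under 0.05. Exact two-sided permutation tests over the 9 tumors gave p = 0.659 for Scgb1a1, 0.325 for Scgb3a1 and 0.333 for Scgb3a2, where 126 regroupings allow p = 0.00794 at the least. These tests treat tumors of 1 mouse as exchangeable with those of other mice, although up to 3 came from 1 mouse. The direction for Scgb3a2 rested on mouse 1, since without its body wall tumors the difference was 0.08.

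Body wall tumors were then set against metastases at all other sites, and the widest gap was that of Scgb3a2, which came from mouse 1 alone. The 3 body wall tumors had 306, 349 and 77.7 units and the 6 others 64.5 to 119, a log2 difference of 1.03 (SE 0.42, 95% interval 0.07 to 1.99). The unadjusted p from limma was 0.0375, but the adjusted p was 0.987, and the exact two-sided permutation test gave p = 0.0714 (0.342 adjusted over the 9 permutation tests run, which include 3 between primary tumors), with 0.0119 the smallest that 84 regroupings allow. In mouse 1 the body wall values of 306 and 349 stood against 93.9 in its liver metastasis, whereas in mouse 3 the body wall value of 77.7 lay between those of the heart (64.5) and the lymph node (119). Without both body wall tumors of mouse 1 the difference was −0.18, and without that of mouse 3 it was 1.86 (limma adjusted p = 0.335). The liver list, whose sum was high in both body wall tumors of mouse 1, also summed to 8588 units in the liver metastasis of mouse 1, where Scgb3a2 was at 93.9. The alveolar type 2 genes summed to 16690 and 13345 units in these body wall tumors, against 11947 in that liver metastasis. A list of 7 muscle genes summed to 267 and 1299 units in both body wall tumors of mouse 1, and the mouse 3 body wall tumor had 825, against 246 to 1906 at the other sites, the highest being the heart, and 3 of the 7 had an unadjusted p under 0.05 between body wall and other metastases. The part of liver, muscle or alveolar tissue in the Scgb3a2 level was not tested. For Scgb1a1 the difference between body wall and other metastases was −0.10 (SE 0.81, −1.94 to 1.73) and for Scgb3a1 −0.03 (SE 0.15, −0.37 to 0.32), with a limma adjusted p of 1.00 each. Again 0% of the 22626 probe sets were called, with 887 at an unadjusted p under 0.05.

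The primary tumors were compared as well, since 3 of them came from mice with no profiled metastasis. The high levels in the primary tumors of mice 1 to 4 took part in the choice of the genes, so the values are a description, with no test. Scgb1a1 was at 1034, 261 and 1187 in mice 5, 6 and 7, and at 2925, 1702, 972 and 3120 in mice 1 to 4, so the groups overlapped through mouse 3. The log2 difference was −1.53 (SE 0.65), and −0.83 without the female mouse 6. Scgb3a1 was at 277, 243 and 165 in mice 5 to 7, against 578, 576, 247 and 1325 in mice 1 to 4, a log2 difference of −1.36 (SE 0.54). Scgb3a2 was at 215, 161 and 247 in mice 5 to 7, against 720, 415, 94.7 and 861 in mice 1 to 4, a log2 difference of −0.95 (SE 0.75), and −1.64 without mouse 3. Of all 22626 probe sets 1.02% were called between these groups in limma, and 4668 had an unadjusted p under 0.05. In all 3 genes mouse 3 had the lowest level of the primary tumors of mice 1 to 4.

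Once the difference between tissues was removed, the 3 genes varied together more closely among the primary tumors than among the metastases. After centring the log2 values on the mean of the metastases and of the primary tumors, Pearson's correlation over 16 tumors, given as a description because metastases of 1 mouse are not independent, was 0.39 between Scgb1a1 and Scgb3a1, 0.51 between Scgb1a1 and Scgb3a2, and 0.52 between Scgb3a1 and Scgb3a2. Among the 7 primary tumors the values were 0.70, 0.78 and 0.83, and among the 9 metastases −0.10, 0.30 and −0.63. Scgb3a1 hardly varied among the metastases (log2 SD 0.20), so its correlations there say little. Over the 16 tumors many genes were closer to a member than the other members were. Among 15700 candidate probe sets, Scgb3a1 ranked 2954 and Scgb3a2 1678 by likeness to Scgb1a1, and Scgb3a2 ranked 664 by likeness to Scgb3a1. No such rank was taken among the primary tumors alone. For Scgb1a1 the most similar genes of 15700 candidate probe sets were Ptprf, a receptor tyrosine phosphatase (r = 0.92), Fnta, a subunit of protein farnesyltransferase (0.91), Samhd1, a dNTP hydrolase (0.91), Itgb1bp1, an integrin-binding protein (0.90), and Btg2, an antiproliferative gene (0.89). The most similar to Scgb3a2 were Manf, a secreted protein of the endoplasmic reticulum stress response (0.86), Tmed6, of a family that carries cargo from the endoplasmic reticulum (0.84), the protease inhibitor Cstb (0.84), Ints7, a subunit of the Integrator complex (0.83), and Tmem208 (0.83). The most similar to Scgb3a1 had lower values, with Tmem54, Ppp2cb and Insig2 at 0.82, Atp6v0d1 at 0.81 and Agfg1 at 0.80, and these rested on the primary tumors, since among the 9 metastases r ran from −0.45 for Agfg1 to 0.58 for Ppp2cb.

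The rest of the club cell program was examined next. Of 23 genes on the list 19 were measured, and 1 fell at an adjusted p under 0.05 (0 rose), where 0.340% of all probe sets were called lower. The median log2 difference of the list was −0.43, against −0.02 over all probe sets; 18 of the 19 were below 0, and 10 were lower at an unadjusted p under 0.05, as were 1607 of the 22626 probe sets. The gene that fell was Retnla, a secreted resistin-like protein that alveolar macrophages also make, with an intensity of 233 ± 347 in the 9 metastases and 859 ± 762 in the 4 matched primary tumors (SD), a log2 difference of −2.56 (SE 0.28, limma adjusted p = 0.00993) and lower values in 9 of 9 metastases. Its call was lost with 1 mean ratio per mouse, which makes the mouse the replicate, with no block, without mouse 1, without mouse 3 and without both body wall tumors of mouse 1. Cyp2f2, the cytochrome P450 typical of mouse club cells, was at 129.8 ± 33.0 in metastases and 393 ± 206 in the primary tumors (log2 difference −1.34, SE 0.28, limma adjusted p = 0.0871). Aldh1a1, a retinal dehydrogenase, was at 104 ± 75.6 in metastases and 297 ± 237 in the primary tumors (−1.79, SE 0.39, limma adjusted p = 0.106). Both were below the own primary tumor in 9 of 9 metastases. For Fmo2, a flavin monooxygenase of the list, the brightest of 3 probe sets differed by −0.53 and another by −3.61, and that other probe set passed with an adjusted p of 0.00993 in limma.

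**Figure D3:**
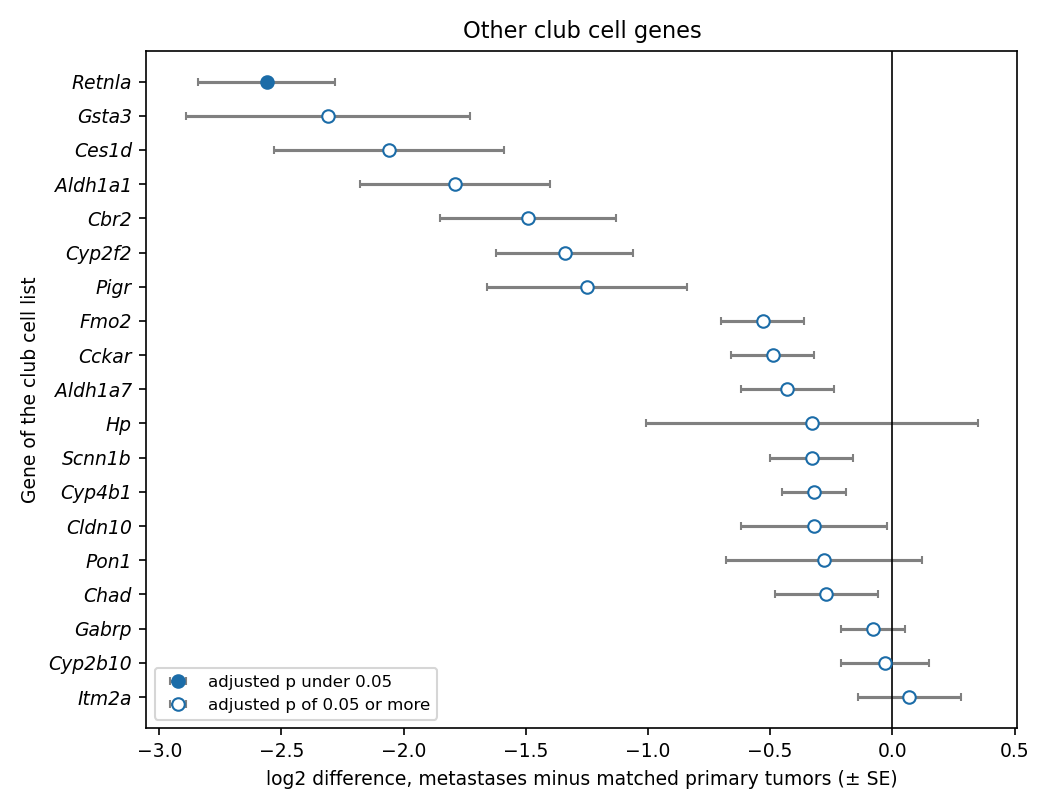
Log2 difference, metastases minus matched primary tumors, of the 19 measured genes of the club cell list (points, with bars for 1 SE), each at its brightest probe set. Of the 19 genes 18 lie below 0, and Retnla, the filled point at −2.56, is the 1 with an adjusted p under 0.05.

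The list of club cell regulators, transcription factors and the receptors Notch1 and Notch2, had no call, with 0 of 17 lower or higher at their brightest probe sets in limma (5 lower at an unadjusted p under 0.05, median log2 difference −0.30). The Ets factors Ehf and Elf5 had the most negative values, with Ehf at 12.9 ± 9.84 in metastases and 48.2 ± 12.4 in matched primary tumors (−2.43, SE 0.54, limma adjusted p = 0.108; 8 of 9 metastases were under the 25th percentile of all values, 24.3, so the size is uncertain) and Elf5 at 55.9 ± 44.5 in metastases and 201 ± 91.5 in matched primary tumors (−2.20, SE 0.52, limma adjusted p = 0.134). Other probe sets of both genes passed, with a smallest adjusted p of 0.0414 for Ehf and of 0.0207 for Elf5 at −1.40. Cebpa, which encodes C/EBP alpha, differed by −0.66 (SE 0.17, limma adjusted p = 0.155). Nkx2-1, the lung lineage factor, was dim on these arrays, with a mean of 25.8 in metastases and 34.9 in matched primary tumors, below its own primary tumor in 5 of 9 metastases (limma adjusted p = 0.739). The forkhead genes Foxa1 and Foxa2 were at 0.38 (SE 0.19) and −0.30 (SE 0.21), with adjusted p-values of 0.504 and 0.660 in limma.

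Markers of other lung epithelial cells were measured in the same fit. None of the 12 alveolar type 2 genes was called in limma, but all 12 were below 0, with a median of −2.16, and 10 were lower at an unadjusted p under 0.05. Among them were Slc34a2, a phosphate transporter (−2.27, SE 0.41, limma adjusted p = 0.0582), the collectin Sftpd (−2.41, SE 0.47, limma adjusted p = 0.0725) and the mucin Muc1 (−2.76, SE 0.56, limma adjusted p = 0.0822). Of 11 goblet cell genes none was called, 9 were below 0 and 4 were lower at an unadjusted p under 0.05, with a median of −1.11; the airway secretory genes Bpifa1 (−2.09, SE 0.39, limma adjusted p = 0.0640) and Muc5b (−2.36, SE 0.52, limma adjusted p = 0.106) were below the own primary tumor in 9 of 9 metastases, and Bpifb1 differed by −0.96 (limma adjusted p = 0.331). The 7 ciliated genes had a median of 0.08 with no call, 0 lower and 1 higher (Tuba1a) at an unadjusted p under 0.05; Foxj1, the master factor of motile cilia, differed by 0.11 (limma adjusted p = 0.805), Lrrc23 by 0.16 (limma adjusted p = 0.631) and Tuba1a, a tubulin that many cells express, by 0.70 (limma adjusted p = 0.118). The 7 genes of basal and variant club cells had no call, and 4 of them, Krt15 and Upk3a included, stayed under 24.3 (25th percentile of all values) throughout the 16 tumors, so that the median of 0.11 and the differences of 0.61 for Krt15 and 0.25 for Upk3a are between dim values. Trp63 differed by −0.14. The negative medians of the alveolar and goblet genes thus stood beside the lower secretoglobins, and their part in the secretoglobin difference was not tested.

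Summed over all 19 measured genes, the club cell list had 2018 to 6620 units in metastases and 4062 to 7640 in matched primary tumors. These ranges overlapped. The sum was also read without Hp (haptoglobin), which the liver also makes and which alone ranged from 117 to 3225 units in the metastases. Hp, left out after its values were seen, was above the own primary tumor in 6 metastases and below it in 3. It was highest in the lymph node (3225) and pleural (3033) tumors of mouse 4. In the liver metastases it was 2176 (mouse 1) and 247 (mouse 2). The other 18 genes, secretoglobins not included, summed to 1770 to 3395 units in metastases (median 2166), against 3680 to 5318 in the matched primary tumors (median 4667) and 4110 to 7166 in mice 5 to 7. Among metastases, the sum without Hp was highest in mouse 4, with 3395 units in the lymph node and 3072 in the pleural tumor. These tumors also had the most Scgb1a1. That sum was lowest in the liver metastasis of mouse 2 (1770). No gene of any list was called between thoracic and distant metastases, between body wall and other metastases, or between the primary tumors of mice 5 to 7 and those of mice 1 to 4.

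Proteins reported to bind secretoglobins, and the other secretoglobins of the array, were not called in limma (1 of 5 and 0 of 3 lower at an unadjusted p under 0.05). Of the binding proteins the heparan sulfate proteoglycan Sdc1 differed by −0.74 (SE 0.20, limma adjusted p = 0.191), the macrophage scavenger receptor Marco by −0.33 (limma adjusted p = 0.657), and Lmbr1l by −0.09 (limma adjusted p = 0.899), with a list median of −0.09. The 3 other secretoglobins were dim, and their values in metastases were close to those in the primary tumors. Scgb1b2 never reached 24.3 (the 25th percentile) in any tumor. The group means of Scgb2b27 and Scgb1b27 lay below 79.4, the median of all values. Scgb2b27 was at 39.1 ± 14.3 in metastases and 37.1 ± 12.4 in matched primary tumors, Scgb1b27 at 45.2 ± 8.07 in metastases and 44.2 ± 7.93 in the primary tumors, and Scgb1b2 at 11.6 ± 3.75 in metastases and 11.8 ± 4.61 in the primary tumors. Their log2 differences were 0.06 (SE 0.21), 0.03 (SE 0.17) and −0.03 (SE 0.30). Because these are differences between dim values, they do not show that the genes were expressed and unchanged.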

How the data were processed

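The authors extracted total RNA from dissected tumors, hybridized 1 Affymetrix Mouse 430A 2.0 array per tumor, scanned it with Microarray Suite and summarized probes in dChip (invariant set normalization, then the model of perfect match minus mismatch signal). The deposited table holds the resulting linear intensities. Of 22690 probe sets, 64 controls were left out. Of the rest 20380 have 1 gene symbol, 691 several and 1555 none. No sequence depth applies to arrays, and their number limits the precision.

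Before the log2 step, any intensity under 1 was set to 1. Tests used limma 3.58.1 under R 4.3.3. The mouse was a fixed block for metastases against matched primary tumors, a random block between metastases (consensus correlation 0.154 for thoracic against distant, 0.281 for body wall against other) and no block between primary tumors. The Benjamini-Hochberg adjustment ran over 22626 probe sets, and the scripts were tested on simulated data. Up to 3 metastases have a primary tumor in common, so SE and p-values do not measure the spread between animals alone. Pairs are tumors of 1 mouse. Relative to the tissue means, a metastasis and its own primary tumor correlated at −0.00 to 0.40, the highest of the 4 primary tumors for 6 of 9 metastases. The genes and lists were chosen with earlier results of these data known. Each listed gene is given at its brightest probe set. Named genes are the members, for each list up to 5 with the largest difference among those called, filled up to 3 with those of smallest p, and the 5 genes most similar to each member. Alternatives covered the floor, normalization, block, dim probe sets, single tumors and mice, both body wall tumors of mouse 1, the ratio to the primary tumor and the methods' paired t-test. Genes named outside the rule were chosen after their values were seen. They include Fmo2, Hp, Nkx2-1, Foxa1, Foxa2, Elf3, Grhl2 and the liver genes Alb, Apoa1, Ttr, Ahsg and Fgb. Figures were drawn with matplotlib 3.10.9 in Python 3.11.15.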

Additional observations from a re-analysis of the deposited data

How the results depend on the processing

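All 3 genes kept the sign of their differences between metastases and matched primary tumors under all alternatives run, with Scgb1a1 at −6.03 to −5.12 and Scgb3a2 at −2.41 to −1.29 on the log2 scale. Scgb3a1 was at −1.77 with all 16 tumors, and at −2.74 to −1.82 with 1 mouse or tumor left out. The count of club cell genes called lower, 1 in the paired fit, was 0 with no replicate block, 5 with all 16 tumors, 5 with dim probe sets left out, 0 with 1 mean ratio per mouse, 3 by the methods' paired t-test, 2 at the probe set of smallest p, 0 without both body wall tumors of mouse 1, and 0 to 1 with 1 mouse or tumor left out. Over all probe sets, 80 were called in the paired fit, 43 with no replicate block, 280 with all 16 tumors, 238 with dim probe sets left out, 0 with 1 mean ratio per mouse (571 at an unadjusted p under 0.01) and 885 by the methods' t-test after adjustment (2208 at an unadjusted p under 0.01, the methods' threshold). At an unadjusted p under 0.01, 642 of 900 were lower in the paired fit, 563 of 969 after quantile normalization and 564 of 923 with arrays centred on their medians. The limma fit of all 16 tumors also called genes of other lists. The regulators Ehf, Elf3, Elf5 and Grhl2, the alveolar genes Sftpd, Slc34a2 and Muc1, and Muc5b were lower. Their adjusted p ran from 0.00726 (Sftpd) to 0.0488 (Elf3) in limma. Tuba1a was higher in that fit (limma adjusted p = 0.0274).

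No site difference passed under any alternative. With the mouse as a fixed replicate block, which leaves mouse 3 alone to tell thoracic from distant, that difference was −0.04 for Scgb1a1, −0.19 for Scgb3a1 and 0.18 for Scgb3a2; for ratios to the primary tumor it was −0.19 for Scgb3a1, and with both body wall tumors of mouse 1 left out 0.08 for Scgb3a2. With 1 tumor left out it was −0.06 to 1.12 for Scgb1a1. Between body wall and other metastases, Scgb3a1 was at 0.01 with the fixed replicate block, 0.19 as a ratio to the primary tumor and 0.23 without both body wall tumors of mouse 1, where Scgb3a2 was at −0.18. With 1 tumor left out, Scgb1a1 was at −0.60 to 0.33, Scgb3a1 at −0.20 to 0.12 and Scgb3a2 at 0.74 to 1.86. Between the primary tumors of mice 5 to 7 and those of mice 1 to 4, leaving out 1 tumor gave −1.92 to −0.83 for Scgb1a1, −1.77 to −0.96 for Scgb3a1 and −1.64 to −0.58 for Scgb3a2. The cause of these shifts was not tested.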
